A study of Mus musculus with 6 samples.

Results

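A set of 42 lysosomal genes was followed in cultured mouse cerebellar granule neurons (CGNs) treated with GSK-126 or its vehicle. The set was a list of genes by name, with no threshold on measured values, and it held 7 membrane proteins, 7 proteases, 9 glycosidases, 5 sulfatases, 6 genes of lipid breakdown and its cofactors, 5 genes of the proton pump and the 3 transcription factors Tfeb, Tfe3 and Mitf. All 42 genes were among the 55341 genes counted in every library, and all 42 passed the filter on low counts, which 16343 genes passed. The series held 6 poly(A) RNA-seq libraries, 3 labelled DMSO and 3 labelled GSK-126, an inhibitor of the histone methyltransferase EZH2, which places the repressive mark H3K27me3.

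Both groups were CGN cultures from CD1-IGS mice around the end of the first postnatal week, and no genetic change is named for either. According to the study's methods the neurons were purified on Percoll, a culture replicate pooled the cerebella of litters, and AraC, which kills dividing cells, was added to all cultures. Cells of other types can persist in such cultures. The labels gave the agent and the replicate number and named the source as cerebellum, with neither a dose nor a day of treatment. A day code in the table names was read as addition on the first day in culture, which no label states. The comparison asks which genes depend on EZH2 after neurons have stopped dividing.

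Lysosomes are acidic organelles in which hydrolases break down protein, glycan, glycolipid and sulfated sugar delivered by endocytosis and autophagy. A V-type ATPase pumps protons into the lumen, glycoproteins such as Lamp1 line the membrane, and TFEB, TFE3 and MITF bind E-box sequences in the promoters of many lysosomal genes. Loss of single hydrolases causes storage diseases, many of which damage neurons, the cerebellum included. Microglia, the phagocytes of the brain, also express many of these genes strongly.

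Libraries held from 8058760 to 12047837 counts over genes, and GSK-126 replicate 1 was the deepest. A count of 3 equalled 0.249 to 0.3723 CPM (counts relative to library size, with TMM scaling), so that all 42 genes lay well above this floor. All 12 granule neuron markers listed for the check of the label were detected, with summed levels of 5163, 7299 and 5599 CPM in DMSO replicates 1, 2 and 3. Of these, 7 of the 12 were called lower under GSK-126, against 1.42% of all genes. Libraries were compared as pairs by replicate number. Neither the labels nor the study's methods state that same-numbered libraries share a culture. The number entered the test as a block (edgeR's quasi-likelihood F test, Benjamini-Hochberg adjusted p under 0.05). Same-numbered libraries also deviated together from their group means. Log2 fold changes below are GSK-126 against DMSO from this paired fit, given ± SE with 3 pairs. Values listed by replicate are in the order 1, 2, 3.

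With GSK-126, 5 of 7 protease and 5 of 9 glycosidase transcripts rose, and 0 of 5 genes of the proton pump and 0 of 3 of the TFEB family were called. The difference between these roles was not tested. In the paired test 11 of 42 genes were higher and 0 were lower, against 2.23% of all genes called higher and 1.42% called lower (3.65% in either direction). By the same test 27 of 42 genes were higher and 0 were lower at an unadjusted p under 0.05, against 9.28% and 7.46% of all genes. The genes called were the proteases Ctsb, Ctsd, Ctsl, Ctsz and Tpp1, the glycosidases Hexa, Gla, Gaa, Gusb and Naglu, and the membrane protein Cd63. Their fold changes ran from 1.347 to 1.829.

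The median log2 fold change of the 42 genes was 0.36, beside 0.00 (-0.002) over all genes tested. It was above 0 for 37 genes, where 49.6% of all genes lay above 0, and below 0 for 5 genes (Ctsf, Ids, Atp6v1a, Atp6v1h and Tfe3), against 50.4%. In 34 of 42 genes the GSK-126 library was higher in 3 of 3 pairs, against 19.7% of all genes. Tfe3 alone among the 42 was lower in 3 of 3 pairs, against 19.3% of all genes. DESeq2 with the same block called 16 of 42 genes higher and 0 lower, where it called 2.5% and 1.63% of all genes.

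The calls depend on the pairing. Without the replicate block edgeR called 0 of 42 genes and 0 of 16343 genes, and the adjusted p of the 11 genes then lay between 0.814 and 0.831. At an unadjusted p under 0.05 that fit had 6 members higher and 0 lower, against 3.43% and 2.58% of all genes. Leaving out both libraries of replicate 1, 2 or 3 left 10, 3 and 6 members called, and Ctsd, Ctsl and Ctsz were called each time. Hexa, Gla and Naglu were lost without replicate 1, and Ctsb, Hexa and Gusb were the other calls without replicate 3. Of the 10 calls without replicate 1, 8 were among the 11, and the other calls were Asah1 and Grn.

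**Figure D1:**
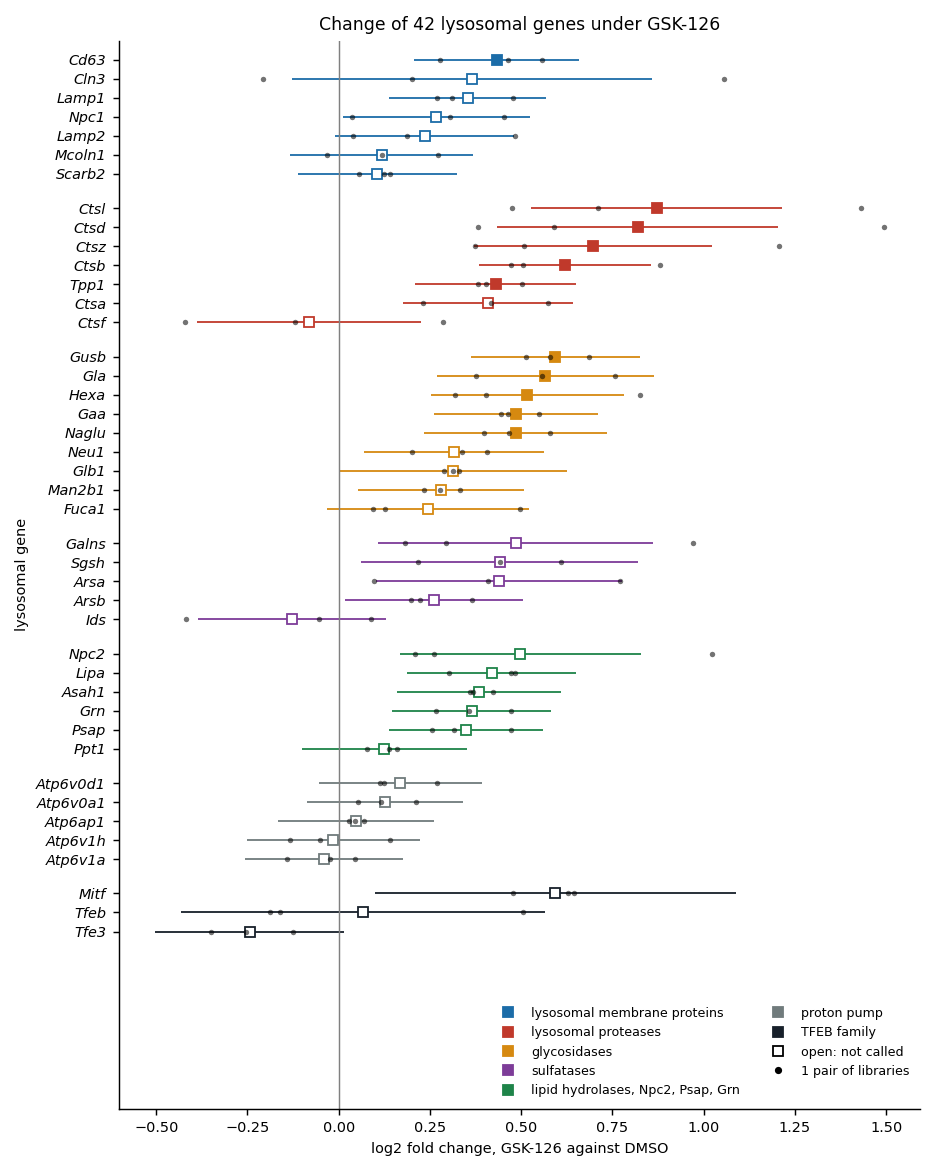
Log2 fold change of the 42 lysosomal genes, GSK-126 against DMSO, by role. Squares show the paired estimate and lines its 95% interval, filled squares mark the 11 genes called and open squares the 31 not called, and black points show the 3 pairs of libraries. Proteases and glycosidases hold 10 of the 11 filled squares, and the 5 proton pump estimates lie between -0.04 and 0.17.

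Levels also differed between cultures. The summed level of the 42 genes was 11450, 9888 and 13270 CPM with DMSO and 17420, 12190 and 17170 CPM with GSK-126. The treated library exceeded its own control by ratios of 1.521, 1.233 and 1.294, while GSK-126 replicate 2 lay below DMSO replicate 3. Replicate 2 was the lowest library for 29 genes with DMSO and for 35 with GSK-126. Within the DMSO group the highest library exceeded the lowest by a median ratio of 1.5, and 38 of 42 genes had a fold change below their own ratio.

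Pair 1 had the largest ratio for 24 of 42 genes and for 10 of the 11 called. The median log2 ratio over the 42 genes was 0.46, 0.27 and 0.28 in pairs 1, 2 and 3. Of the 11 genes called, 0 had GSK-126 libraries that all lay above all DMSO libraries. Neu1 was the single member with such a separation upward and Tfe3 the single member with it downward, where 5.43% and 5.44% of all genes were separated.

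Cathepsins carried most of the added transcript. Ctsb, Ctsd and Ctsl together made up 54.2% of the gain in summed CPM. Per kilobase of exon, the scale on which genes can be compared, Psap was the most abundant of the 42 with DMSO at 641.8 ± 82.89 CPM per kb (SD, n = 3). Ctsd followed at 351.5 ± 112.4 and Ctsb at 304.9 ± 67.94 CPM per kb, which lay within each other's spread. Lamp1 stood at 263.5 ± 43.7 CPM per kb, also within the spread of Ctsb. The 3 TFEB family genes were among the 5 lowest, with Tfe3 at 6.546, Tfeb at 1.88 and Mitf at 1.177 CPM per kb, between which lay Sgsh and Cln3.

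The promoters of the genes called were searched for the E-box that the TFEB family binds. RefSeq windows (GRCm38.p6, 250 bases before to 50 after the gene start) were found for 37 of the 42 genes, 10 of the 11 called among them, and Ctsb had none here. CACGTG, which is its own reverse complement, stood in a window of 15 of the 37 genes (40.5%) against 8.09% of all 27025 genes with a window. It stood in 5 of 10 genes called (50%) and in 10 of 27 not called (37%). Of the 37 genes 6 had several windows, and a match in any counted. The longer form TCACGTGA, which contains CACGTG, stood in 7 of 37 genes (18.9%) against 1.12% of all genes, and the full CLEAR palindrome, which contains both, in 1 of 37 (2.7%, Cln3) against 0.37%. TCATGTG on either strand stood in 6 of 37 (16.2%) against 4.31%. The members were known lysosomal genes from the start, so these shares describe the list and not the response to GSK-126.

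The windows of the genes called that hold CACGTG are printed 5′ to 3′ on the strand of the gene, with that motif in capitals, so that its place and copies can be seen beside the changes of these genes. They are chr13:64370471-64370770 (minus strand) for Ctsl, chr7:142387778-142388077 (minus strand) for Ctsd, chr11:119267713-119268012 (plus strand) for Gaa, chr11:101069844-101070143 (plus strand) for Naglu and chrX:134600956-134601255 (minus strand) for Gla.
Ctsl: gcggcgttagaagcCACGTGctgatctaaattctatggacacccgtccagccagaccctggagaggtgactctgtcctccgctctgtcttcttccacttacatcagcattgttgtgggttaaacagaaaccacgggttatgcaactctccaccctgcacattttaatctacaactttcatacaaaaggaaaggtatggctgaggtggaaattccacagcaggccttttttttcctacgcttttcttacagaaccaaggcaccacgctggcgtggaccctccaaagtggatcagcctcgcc
Ctsd: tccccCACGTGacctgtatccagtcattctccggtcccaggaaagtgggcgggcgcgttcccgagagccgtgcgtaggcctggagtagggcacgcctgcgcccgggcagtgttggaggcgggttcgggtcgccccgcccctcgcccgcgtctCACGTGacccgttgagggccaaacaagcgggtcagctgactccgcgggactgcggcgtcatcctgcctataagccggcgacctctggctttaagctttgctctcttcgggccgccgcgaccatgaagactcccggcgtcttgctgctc
Gaa: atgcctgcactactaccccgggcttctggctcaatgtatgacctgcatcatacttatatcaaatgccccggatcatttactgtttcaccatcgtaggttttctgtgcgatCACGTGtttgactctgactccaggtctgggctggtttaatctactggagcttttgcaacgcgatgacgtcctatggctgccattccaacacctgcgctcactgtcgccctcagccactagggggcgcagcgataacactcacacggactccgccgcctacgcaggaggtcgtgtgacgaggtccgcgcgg
Naglu: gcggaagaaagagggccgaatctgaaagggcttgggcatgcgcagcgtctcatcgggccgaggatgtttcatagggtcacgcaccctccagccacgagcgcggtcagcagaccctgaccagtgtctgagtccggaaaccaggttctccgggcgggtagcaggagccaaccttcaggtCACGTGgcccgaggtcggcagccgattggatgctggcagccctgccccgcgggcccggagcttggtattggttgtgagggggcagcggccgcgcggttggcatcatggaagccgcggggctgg
Gla: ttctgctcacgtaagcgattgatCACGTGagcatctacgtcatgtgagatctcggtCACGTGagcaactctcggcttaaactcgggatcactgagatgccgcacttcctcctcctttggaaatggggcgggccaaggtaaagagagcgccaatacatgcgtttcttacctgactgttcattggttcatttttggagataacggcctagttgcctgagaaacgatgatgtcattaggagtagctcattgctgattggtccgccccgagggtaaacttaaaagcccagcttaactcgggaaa

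The Ctsd and Gla windows hold 2 copies each. In Ctsd the motif begins 245 and 98 bases before the start, in Gla 227 and 194 bases before it. In Ctsl it begins 236, in Gaa 140 and in Naglu 73 bases before the start. These starts are those of RefSeq. The GENCODE spans given below reach further upstream, so that the Ctsl and Naglu motifs and the nearer Ctsd copy lie inside them. Copies alone did not follow the calls, since Lamp1, which was not called, holds 4 copies within 61 bases of its start, and Cd63, which was called, holds 0 in its window. A match gives the letters only, and binding was not measured here.

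Of the 7 proteases 5 rose. Ctsl encodes the cysteine protease cathepsin L and has an E-box near the upstream edge of the window printed above. It had 493.5, 545.8 and 969.9 CPM with DMSO and 1331, 758.3 and 1588 CPM with GSK-126. Each treated library exceeded its own control, but treated replicate 2 stayed below control replicate 3. Its log2 fold change of 0.87 ± 0.16 was the highest of the 42 (adjusted p = 0.0124, edgeR).

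Ctsd, with its pair of E-boxes, encodes cathepsin D, the main aspartic protease of the lysosome. It had 622.5, 731.9 and 1125 CPM with DMSO and 1754, 953.3 and 1693 CPM with GSK-126, so that the rise was steepest in pair 1 and the groups overlapped. The log2 fold change was 0.82 ± 0.17 (adjusted p = 0.028, edgeR), and DESeq2 with the block gave an adjusted p of 0.154. Without replicate 1 the change was 0.49 (adjusted p = 0.0121, edgeR).

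Ctsb, encoding cathepsin B, was the most abundant protease in CPM. Its levels were 1737, 1498 and 2299 CPM with DMSO and 3197, 2080 and 3266 CPM with GSK-126. Again treated replicate 2 lay below the highest control. The log2 fold change was 0.62 ± 0.11 (adjusted p = 0.0114, edgeR), the lowest adjusted p of the 42.

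Ctsz, encoding the carboxypeptidase cathepsin Z, had 149.8, 155.4 and 259.5 CPM with DMSO and 346, 201.3 and 369.5 CPM with GSK-126. It rose by 0.70 ± 0.15 on the log2 scale (adjusted p = 0.0277, edgeR), or 0.44 without replicate 1. Tpp1, the tripeptidyl peptidase deficient in a childhood neuronal ceroid lipofuscinosis, had 223.8, 152 and 180.1 CPM with DMSO and 296.2, 198.2 and 255 CPM with GSK-126. Its pairs rose by much the same amount, with a log2 fold change of 0.43 ± 0.10 (adjusted p = 0.0405, edgeR).

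The other proteases were not called. Ctsa, a carboxypeptidase that also shields beta-galactosidase and sialidase, was higher in 3 of 3 pairs at 0.41 ± 0.11 (adjusted p = 0.061, edgeR). Ctsf, encoding cathepsin F, had 68.98, 78.14 and 73.61 CPM with DMSO and 84.12, 58.32 and 67.77 CPM with GSK-126. Pair 1 went up and the other pairs went down, with a log2 fold change of -0.08 and a 95% interval from -0.39 to 0.23.

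Glycosidases, which trim sugars from glycoproteins, glycolipids and glycosaminoglycans, were higher in 3 of 3 pairs for all 9 members, of which 5 were called. Gusb, encoding beta-glucuronidase, had 104.3, 73.64 and 135.6 CPM with DMSO and 167.9, 110.1 and 193.6 CPM with GSK-126. Only treated replicate 2 lay inside the range of the controls. Its log2 fold change was 0.59 ± 0.10 (SE 0.105, adjusted p = 0.0124, edgeR).

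Gla, whose enzyme alpha-galactosidase A is lost in Fabry disease, had 32.65, 26.38 and 39.47 CPM with DMSO and 55.3, 38.92 and 51.25 CPM with GSK-126. Treated replicate 2 fell just short of the highest control. The log2 fold change was 0.57 ± 0.14 (SE 0.135) with an adjusted p of 0.0444 in edgeR, the closest to the threshold among the genes called. Lipa, an acid lipase, was the nearest outside it at an adjusted p of 0.0535.

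Hexa encodes the alpha subunit of beta-hexosaminidase A, the enzyme missing in Tay-Sachs disease. It was the glycosidase with the highest level per kilobase and had 201.9, 134.8 and 226 CPM with DMSO and 357.8, 178.4 and 281.8 CPM with GSK-126. The rise was 0.52 ± 0.12 on the log2 scale (adjusted p = 0.0388, edgeR) and was again steepest in pair 1.

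Gaa, the acid alpha-glucosidase that degrades lysosomal glycogen, had 159.9, 100.8 and 166.5 CPM with DMSO and 234.1, 137.1 and 229.6 CPM with GSK-126. Its pairs were close to each other and the log2 fold change was 0.49 ± 0.10 (adjusted p = 0.0257, edgeR). Naglu, which acts on heparan sulfate, had 64.37, 39.88 and 58.49 CPM with DMSO and 96.36, 55.19 and 77.22 CPM with GSK-126, a change of 0.49 ± 0.11 (adjusted p = 0.0416, edgeR).

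Among glycosidases not called, the sialidase Neu1 had 61.6, 69.01 and 60.03 CPM with DMSO and 81.7, 79.4 and 75.85 CPM with GSK-126. All treated libraries lay above all controls, with a log2 fold change of 0.32 ± 0.11 (adjusted p = 0.176, edgeR). Fuca1, an alpha-fucosidase and the lowest estimate of the group, had 58.83, 41.76 and 69.36 CPM with DMSO and 83.2, 44.58 and 75.74 CPM with GSK-126. Its 95% interval ran from -0.03 to 0.52. The beta-galactosidase Glb1 and the alpha-mannosidase Man2b1 had log2 fold changes of 0.31 and 0.28.

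Among the membrane proteins 1 of 7 was called. Cd63, a tetraspanin of late endosomes, lysosomes and exosomes, had 390.7, 238.7 and 339.4 CPM with DMSO and 575.4, 329.2 and 411.2 CPM with GSK-126. Treated replicate 2 lay within the controls, and the log2 fold change was 0.43 ± 0.10 (adjusted p = 0.0434, edgeR). Lamp1, the most abundant lysosomal membrane glycoprotein here per kilobase, had 792.8, 572.2 and 749.5 CPM with DMSO and 1104, 709.7 and 904 CPM with GSK-126. It was higher in each pair, at 0.35 ± 0.10, but was not called by edgeR (adjusted p = 0.08), whereas DESeq2 with the block gave an adjusted p of 0.0353.

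Scarb2, the receptor that carries glucocerebrosidase to the lysosome, had 243.3, 198.9 and 233.2 CPM with DMSO and 252.8, 216.6 and 257.2 CPM with GSK-126. Its log2 fold change of 0.11 had a 95% interval from -0.11 to 0.32. The other membrane proteins, Lamp2, the sterol exporter Npc1, the ceroid lipofuscinosis protein Cln3 and the calcium channel Mcoln1, had log2 fold changes of 0.24, 0.27, 0.37 and 0.12 and were not called. Cln3 was higher in pair 1 and pair 3 and lower in pair 2.

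The sulfatases, which remove sulfate from glycosaminoglycans and sulfatides, had 0 of 5 called in edgeR with the block and 4 of 5 higher at an unadjusted p under 0.05. DESeq2 with the block also called 0 of 5. Galns, which acts on keratan sulfate, had 22.61, 26 and 37.34 CPM with DMSO and 44.56, 31.93 and 42.37 CPM with GSK-126, a log2 fold change of 0.49 ± 0.17 (adjusted p = 0.174, edgeR). Sgsh, Arsa and Arsb had log2 fold changes of 0.44, 0.44 and 0.26.

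Ids, the iduronate sulfatase deficient in Hunter syndrome, was the sulfatase with the highest level per kilobase and went the other way. It had 260.5, 274.4 and 245.9 CPM with DMSO and 195, 291.6 and 236.7 CPM with GSK-126. Pair 1 carried the difference, and the log2 fold change of -0.13 (95% interval -0.39 to 0.13) became 0.02 without replicate 1.

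The 6 genes of lipid breakdown and its cofactors were higher in 3 of 3 pairs, and edgeR with the block called 0 of them while DESeq2 with the block called 4 (Lipa, Npc2, Psap and Grn). At an unadjusted p under 0.05 edgeR had 5 of 6 higher. Psap, the precursor of the saposins that present lipids to hydrolases, had 1685, 1582 and 2017 CPM with DMSO and 2339, 1888 and 2511 CPM with GSK-126. Only treated replicate 2 lay inside the control range, and the log2 fold change was 0.35 ± 0.10 (adjusted p = 0.0773, edgeR; 0.0333, DESeq2).

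Npc2, the soluble sterol carrier that hands cholesterol to Npc1, had 169.7, 168.4 and 280.7 CPM with DMSO and 345.2, 194.6 and 336.3 CPM with GSK-126. Its ratio was highest in pair 1, and the log2 fold change was 0.50 ± 0.15 (adjusted p = 0.109, edgeR). Grn, whose product progranulin is cleaved to granulins in lysosomes, the lipase Lipa and the acid ceramidase Asah1 had log2 fold changes of 0.36, 0.42 and 0.39. Ppt1, which removes palmitate from proteins, had 148.7, 113.8 and 130.2 CPM with DMSO and 157, 127.2 and 143.2 CPM with GSK-126, with a log2 fold change of 0.13 and a 95% interval from -0.10 to 0.35.

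The proton pump had the lowest median log2 fold change of the 7 roles, at 0.05. Of its 5 genes 0 were called by edgeR or by DESeq2 with the block, and 0 had an unadjusted p under 0.05 in edgeR. Atp6ap1, an accessory subunit and the most abundant of these per kilobase, had 350.8, 372.8 and 328 CPM with DMSO and 362.1, 379.9 and 344.4 CPM with GSK-126. Its log2 fold change was 0.05 with a 95% interval from -0.17 to 0.26.

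Atp6v1a, the ATP-hydrolysing subunit, had 444.1, 465.9 and 457.6 CPM with DMSO and 402.3, 480.5 and 449.9 CPM with GSK-126, and its interval ran from -0.26 to 0.18. Atp6v0d1, of the membrane sector, had 199.7, 192.2 and 210.4 CPM with DMSO and 240.7, 209.4 and 227.7 CPM with GSK-126, with an interval from -0.05 to 0.39. Whether the pump genes differ from the genes called was not tested. Atp6v0a1 and Atp6v1h had log2 fold changes of 0.13 and -0.01 (-0.015).

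Of the 3 transcription factors of the TFEB family 0 were called by edgeR or by DESeq2 with the block, and 1 (Mitf) was higher at an unadjusted p under 0.05 in edgeR. Tfe3, the most abundant of them, had 59.98, 59.51 and 62.39 CPM with DMSO and 50.22, 46.63 and 57.18 CPM with GSK-126. All treated libraries lay below all controls, and the log2 fold change was -0.24 ± 0.12 (adjusted p = 0.335, edgeR). Mitf, at 8.075, 4.001 and 9.807 CPM with DMSO and 11.33, 6.386 and 15.26 CPM with GSK-126, was higher in each pair at 0.59 ± 0.23 (SE 0.225, adjusted p = 0.207, edgeR). Tfeb had 10.73, 8.251 and 13 CPM with DMSO and 15.32, 7.35 and 11.39 CPM with GSK-126. Pair 1 alone went up, and its 95% interval, from -0.43 to 0.57, leaves its direction undetermined. Transcript levels do not report the nuclear location on which the activity of these factors depends.

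The 11 genes called lie on 9 chromosomes of GRCm38 (GENCODE M21), and their counts cover annotated exons, UTRs included. Ctsb spans chr14:63122462-63145923, Ctsd chr7:142375911-142388038, Ctsl chr13:64359337-64370890, Ctsz chr2:174427493-174439039 and Tpp1 chr7:105744811-105752235. Hexa spans chr9:59539540-59565109, Gla chrX:134588149-134601125, Gaa chr11:119267887-119285454, Gusb chr5:129989011-130003049, Naglu chr11:101070012-101077672 and Cd63 chr10:128900989-128912822.

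Overlapping genes make some of these counts less certain, because no source says whether HTSeq used strand. Of the exon bases of Ctsd 34.4% also belong to Gm49369 on the same strand, which had 0 counts in every library. How reads over both genes were counted is not given in the sources used here. That 0 therefore does not show that Ctsd lost no reads, and its level per kilobase shares this limit. On the opposite strand Ctsl shares 26.8% of its exon bases with Gm47123, Ctsb 12.8% with Fdft1, Hexa 12.8% with Tmem202 and Ctsz 0.694% with Nelfcd. Ctsl also shares 6.09% with Gm49230 on its own strand. Fdft1, a sterol synthesis gene, had 89.86, 82.01 and 104.7 CPM with DMSO and 177, 179.1 and 173.5 CPM with GSK-126. Whether reads over this overlap added to or were lost from the counts of Ctsb was not tested. The other genes called had no exon overlap.

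A wider list held 100 genes outside the 42, and 33 of these were genes of TFEB control and autophagy. Of the 100 genes 96 passed the filter, 13 were higher and 1 was lower, against 2.23% and 1.42% of all genes. Their median log2 fold change was 0.15. It was 0.09 for TFEB control and autophagy, 0.06 for the further pump subunits and 0.19 for the further membrane proteins and transporters. Mfsd8 and Atp6v1c1 are listed at 0 in every library. For Atp6v1c1 the partner subunits Atp6v1d and Atp6v1b2 had means of 88.51 and 421.9 CPM with DMSO, so the 0 is not read as a level. That of Mfsd8 is not read as a level either. Of 27 further hydrolases 5 were higher, Ctsc, Ctss and Lgmn among them, with a median of 0.36, and of 21 further membrane proteins and transporters 3 were higher (Cd68, Laptm5 and Mfsd1). Of 15 further pump subunits 2 were higher and 1 lower, and of 33 genes of TFEB control and autophagy 3 were higher (Fnip2, Rragd and Igf2r). Without the block 0 of the 96 were called by edgeR, where 7 were higher and 0 lower at an unadjusted p under 0.05. With the block, leaving out replicate 1, 2 or 3 left 11, 1 and 5 of them called.

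The 2 pump subunits that rose, Atp6v0d2 and Tcirg1, encode isoforms known from osteoclasts and macrophages. Atp6v0d2 had 12.23, 9.751 and 38.76 CPM with DMSO and 23.82, 24.34 and 77.11 CPM with GSK-126, a rise of 1.08 ± 0.15 on the log2 scale (adjusted p = 0.00471, edgeR). The ratio was alike in the 3 pairs although replicate 3 stood far above the others in both groups. Tcirg1 rose by 0.62 ± 0.12 (SE 0.115, adjusted p = 0.0151, edgeR). Atp6v1g2, the neuronal isoform of the G subunit, had 56.87, 127.6 and 81.41 CPM with DMSO and 42.31, 88.56 and 61.85 CPM with GSK-126, and it fell by 0.45 on the log2 scale (SE 0.110, adjusted p = 0.0475, edgeR). This call was lost with DESeq2 and the block (adjusted p = 0.0506) and with RLE or upper-quartile scaling.

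Laptm5, a lysosomal membrane protein of blood cells, rose by 0.61 ± 0.11 (adjusted p = 0.0111, edgeR).

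Some markers of other cell types were higher in the same libraries. Of 14 microglial markers 13 passed the filter, and Trem2 is listed at 0 in every library. Csf1r and C1qa had means of 72.45 and 103.3 CPM with DMSO, so the 0 of Trem2 is not read as a level. Of the 13, 3 were higher, C1qb and C1qc among them, and 0 lower, against 2.23% and 1.42% of all genes. The median log2 fold change of the 13 was 0.42. At an unadjusted p under 0.05 in edgeR 7 were higher and 0 lower, against 9.28% and 7.46% of all genes. Their summed level ranged from 495.2 to 915.4 CPM with DMSO and from 641.9 to 1255 CPM with GSK-126, with ratios of 1.869, 1.296 and 1.23 in pairs 1, 2 and 3. C1qb, a complement subunit made by microglia, had 58.6, 53.51 and 97.25 CPM with DMSO and 151.1, 68.32 and 132.6 CPM with GSK-126. Its ratio was highest in pair 1, which held for most of these markers but not for Csf1r, Ptprc, Cx3cr1 and Aif1.

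The other 10 microglial markers that passed were not called. Csf1r, the receptor on which microglia depend, had 88.13, 48.88 and 80.35 CPM with DMSO and 102.4, 59.04 and 85.42 CPM with GSK-126, a log2 fold change of 0.19 with a 95% interval from -0.05 to 0.43. Cx3cr1, Tmem119 and P2ry12 had log2 fold changes of -0.02, 0.24 and 0.30, and those of C1qa, Tyrobp, Itgam and Ptprc were 0.66, 0.68, 0.62 and 0.42. Aif1 and Fcrls stood at -0.08 and 0.20. Of 8 fibroblast markers 2 were higher, and their summed level ranged from 7111 to 9220 CPM with DMSO and from 9244 to 10270 CPM with GSK-126. Of 8 endothelial and mural markers that passed 2 were higher, of 12 astrocyte and Bergmann glia markers 1, of 12 oligodendrocyte lineage markers 1, and of 10 GABAergic neuron markers 0 were higher and 1 lower. Of all genes 2.23% were called higher and 1.42% lower. At an unadjusted p under 0.05 in edgeR 2 astrocyte and Bergmann glia markers were higher and 4 lower, against 9.28% and 7.46% of all genes. The summed level of these 12 had ratios of 1.014, 0.9981 and 0.8578 in pairs 1, 2 and 3.

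The granule neuron markers were lower in summed level in each pair, with ratios of 0.6985, 0.7859 and 0.7599. They did not move alike, with 10 of 12 log2 fold changes below 0 and 2 above. Slc17a7, Cbln3, Gabra6 and Etv1 had log2 fold changes of -2.16, -1.45, -1.42 and -1.06. Those of Reln, Pax6 and Tubb3 were -0.13, 0.04 and 0.36, and these genes were not called. The part of microglia and of the other cell types in the rise of the lysosomal genes was not tested. In bulk RNA fewer cells of a type and less RNA per cell cannot be told apart.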

How the data were processed

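Poly(A) RNA was sequenced from 3 DMSO and 3 GSK-126 CGN cultures. The authors deposited raw read counts per gene, 1 table per library. According to the methods and processing notes, paired-end reads were trimmed with Trimmomatic 0.38, aligned with STAR 2.7.2b to GRCm38 and counted over exons with HTSeq, and the strand setting is not given in the sources used here. Summary rows without a gene were dropped (reads over no exon, 44.81 to 46.75% of fragments). Genes were filtered with filterByExpr by group, scaled with TMM and tested in edgeR 4.0.16 (glmQLFit, legacy=TRUE, robust=FALSE) with the replicate number as a block. The block removes differences between replicates. The p-values and SE then rest on how far the 3 pairs disagree and on a variance that edgeR shares across genes. Glb1 had log2 pair ratios of 0.314, 0.329 and 0.289 with an SE of 0.142. Ctsb had 0.88, 0.473 and 0.506 with an SE of 0.108. The alternative tools were DESeq2 1.42.0 and limma 3.58.1, and the fit was tested on simulated data.

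The replicate numbers were checked for pairing. Across genes, deviations from the mean of a group had a Pearson r of 0.35, 0.50 and 0.52 between same-numbered libraries and of -0.41 to -0.01 in the 6 other combinations. Deviations from a group mean cancel within the group, so the values for other combinations are not independent of those for same-numbered libraries. In the study's methods a replicate is a culture of pooled litters. No libraries agreed within sampling noise (lowest chi-square per degree of freedom, 9.976).

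CPM use TMM library sizes, and pair ratios a prior count of 2. SE is the log2 fold change divided by the square root of F. Floors cover counting error only. The members and all gene lists were chosen with earlier results of these data known. Named were all genes called, the TFEB family, in each role the genes with the highest level per kilobase and the highest and lowest change, and of other lysosomal genes called at most the 4 with the smallest p in each direction with values, of which some are not reported here. The microglial genes, Fdft1 and the other list members named were chosen after their values were seen. Coordinates are from GENCODE M21 and promoters from RefSeq.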

Additional observations from a re-analysis of the deposited data

How the results depend on the processing

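The number of genes called depended on the pairing of libraries. Without the replicate block edgeR called 0 of all genes, 0 of the 42 lysosomal genes and 0 of the other lysosomal genes, against 597, 11 and 14 with it. At an unadjusted p under 0.05 the fit without the block had 560 genes higher and 421 lower, with 6 of the 42 and 7 of the others among the higher. DESeq2 without the block called 59, 0 and 0. Without the filter on low counts edgeR called 1136 genes and 18 of the 42. Leaving out each replicate in turn (both libraries) gave 178 to 704 genes, 3 to 10 of the 42 and 1 to 11 of the others, lowest without replicate 2. With other scaling factors, DESeq2 with the block and limma-voom, counts stayed within 1.5 times, from 574 to 674 genes and from 11 to 16 of the 42. The median log2 fold change of the 42 stayed between 0.292 and 0.403.

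Directions turned only for genes that were not called. Leaving out each replicate in turn, Ids ranged from -0.221 to 0.017, Atp6v1a from -0.068 to 0.010, Atp6v1h from -0.076 to 0.046 (0.003 without replicate 1), Tfeb from -0.179 to 0.197 and Ctsf from -0.269 to 0.102. The cause was not tested. With 3 pairs, the precision rests on how far the pairs disagree and on a variance shared across genes.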
